A study of Mus musculus with 4 samples.

Results

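The circadian clock genes described here are 10 genes of the feedback loop that keeps daily time inside cells: Arntl and Clock (the activators), Per1, Per2, Per3, Cry1 and Cry2 (the repressors), Nr1d1 and Nr1d2 (the nuclear receptors of the second loop) and Dbp (a transcription factor of the clock's output). They were found by their symbols among the 51912 genes of the deposited table, and each of the 10 had 1 row and passed the filter on low counts. Messenger RNA was measured by RNA sequencing in sorted pancreatic β cells of mouse neonates at day 13. The 2 Robo mutant libraries came from Robo1delta/delta; Robo2flx/flx neonates and the 2 control libraries from Robo1+/+; Robo2+/+ neonates. All of them carried 1 copy of Ucn3-Cre, a Cre recombinase driven from a gene of maturing β cells, and 1 copy of the Cre-dependent nuclear reporter Rosa26-lsl-H2B-mCherry, by which cells were sorted. The Robo1 allele is named as deleted rather than conditional, so its loss is not limited to cells with Cre, whereas deletion of Robo2 needs the Cre. Robo1 and Robo2 encode Roundabout receptors, and the series title links their expression in β cells to how the endocrine cells of the islet are arranged. The labels give no time of day of collection, and they do not say whether libraries came from separate or pooled animals. The p-values below therefore compare the spread of these 4 libraries alone, and that spread may be technical.

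In the clock, the proteins encoded by Clock and Arntl (also called BMAL1) bind DNA as a pair at E-boxes and switch on the Per, Cry, Nr1d1, Nr1d2 and Dbp genes. PER and CRY proteins then repress that pair, and REV-ERBα and REV-ERBβ, encoded by Nr1d1 and Nr1d2, repress Arntl and other genes at sites called ROREs, which ROR receptors activate. DBP and its relatives TEF and HLF activate genes at D-boxes, where NFIL3 represses. Transcripts of the activator Arntl and of the outputs Nr1d1 and Dbp therefore peak at opposite times of day in many mouse tissues. In mice, loss of Arntl from β cells impairs insulin secretion.

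Sites of these kinds stood in some of the promoter windows, which run from 250 bases before to 50 bases after each annotated start (RefSeq, GRCm38.p6, 9 of the 10 genes with a window). The windows printed are those of Arntl, Cry1, Per1 and Per3, which hold a site. Nfil3 was added because its window and that of Arntl hold the same motif. The windows of Nr1d1 and Cry2 also hold a site but are not printed. Capitals mark the motif, and positions count from the start as 0. The Arntl window (chr7:113207261-113207560, plus strand) holds a RORE core at position 30, and the Nfil3 window (chr13:52980990-52981289, minus strand) holds it on the opposite strand at position -12. The Cry1 window (chr10:85185005-85185304, minus strand) holds an E-box at -60 and its variant, the E'-box, at -79. The Per1 window (chr11:69098699-69098998, plus strand) holds an E-box at -166. Arntl and Per1 each have 2 windows, and the other window of each holds none of the motifs searched. The Per3 window (chr4:151044616-151044915, minus strand) holds 2 D-boxes, at -205 and -158.
Arntl: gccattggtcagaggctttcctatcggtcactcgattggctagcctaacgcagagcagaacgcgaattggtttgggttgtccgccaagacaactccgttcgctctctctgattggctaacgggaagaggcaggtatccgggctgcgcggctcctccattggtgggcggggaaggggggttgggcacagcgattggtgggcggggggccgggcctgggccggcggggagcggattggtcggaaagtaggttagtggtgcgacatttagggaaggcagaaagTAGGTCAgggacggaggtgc
Nfil3: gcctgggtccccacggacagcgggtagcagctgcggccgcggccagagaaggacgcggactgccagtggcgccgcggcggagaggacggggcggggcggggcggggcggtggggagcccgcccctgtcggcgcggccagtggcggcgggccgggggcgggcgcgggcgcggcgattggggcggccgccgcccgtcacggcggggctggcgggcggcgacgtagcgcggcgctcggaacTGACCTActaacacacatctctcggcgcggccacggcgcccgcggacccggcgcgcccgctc
Cry1: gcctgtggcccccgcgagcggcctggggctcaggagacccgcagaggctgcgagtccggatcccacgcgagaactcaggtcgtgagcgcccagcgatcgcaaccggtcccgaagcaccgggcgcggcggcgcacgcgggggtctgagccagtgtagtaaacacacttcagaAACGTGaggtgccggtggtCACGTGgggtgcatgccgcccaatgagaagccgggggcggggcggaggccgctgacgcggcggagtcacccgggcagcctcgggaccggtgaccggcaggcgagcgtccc
Per1: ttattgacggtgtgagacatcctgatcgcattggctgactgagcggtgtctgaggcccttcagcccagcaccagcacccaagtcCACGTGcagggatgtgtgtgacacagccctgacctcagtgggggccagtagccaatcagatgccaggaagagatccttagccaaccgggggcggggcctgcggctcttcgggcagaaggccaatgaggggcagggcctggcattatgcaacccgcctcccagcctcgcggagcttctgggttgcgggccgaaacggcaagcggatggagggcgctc
Per3: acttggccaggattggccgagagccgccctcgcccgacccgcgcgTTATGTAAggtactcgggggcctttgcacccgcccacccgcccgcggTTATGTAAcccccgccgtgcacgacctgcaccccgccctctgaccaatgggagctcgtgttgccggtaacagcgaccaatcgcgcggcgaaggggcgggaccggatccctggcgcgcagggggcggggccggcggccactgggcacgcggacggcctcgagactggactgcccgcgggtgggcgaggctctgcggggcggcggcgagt
The motifs searched on both strands were CACGTG (E-box), CACGTT (E'-box), TTANGTAA (D-box), TAGGTCA (RORE core) and TGACGTCA (the cyclic AMP response element), of which the E-box and the E'-box differ at 1 end and do not match the same bases. Among all 32851 windows of this length, 7.15% held the E-box, 4.68% the E'-box, 2.32% the D-box, 2.61% the RORE core and 1.79% the cyclic AMP response element. Nr1d1 and Cry2 each held an E'-box, at -28 and -166, and the windows of Clock, Nr1d2 and Dbp held none of the 5 motifs. A match describes letters in a window and is not evidence of binding.

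Totals were 47788000 to 49593712 estimated counts in the mutant libraries and 38886129 to 48217557 in the control libraries. Robo1 was at 22.3 and 21.02 CPM in the mutant libraries, against 48.5 and 104.1 CPM in the control libraries, and Robo2 at 32.7 and 25.6 CPM, against 75.3 and 118.3 CPM (CPM, counts-per-million of a library total scaled by the trimmed mean of M-values, TMM). The sorted cells carried their defining transcripts, the 9 β-cell markers summing to 226354 and 159427 CPM in the mutant libraries and 230142 and 196313 CPM in the control libraries. Robo mutant 2 stood apart: it lay alone on 1 side of the first principal component, which held 51.4% of the variance. Its 10 acinar markers summed to 48508 CPM, against 3120 CPM in Robo mutant 1 and 5007 and 771 CPM in the control libraries, and 9 of the 10 were higher in the mutant mean. Its 5 stromal markers summed to 9.41 CPM, against 812 CPM in Robo mutant 1 and 1796 and 538 CPM in the control libraries, and all 5 were lower in the mutant mean. The 5 α-cell markers summed to 19273 and 24115 CPM in the mutant libraries, against 23794 and 11889 CPM in the control libraries, and the 3 δ-cell markers to 2504 and 1282 CPM, against 1061 and 979 CPM. Macrophage markers summed to at most 81.6 CPM in any library. The endothelial ones summed to 0.88 and 0.18 CPM in the mutant libraries, against 0.96 and 11.3 CPM in the control libraries. Cdh5, Kdr and Emcn were at 0 in both mutant libraries, and Kdr and Emcn were at 0 in control 1 too. What part these cells had in the clock transcripts was not tested.

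Per length, the transcripts of the repressor Cry2, the receptors Nr1d1 and Nr1d2 and the output factor Dbp had the highest means of the 10. The activators were among the least abundant. In TPM (transcripts-per-million, counts divided by the length of a gene's merged exons), Cry2 was at 76.3 ± 23.75 in mutant and 69.9 ± 3.161 in control libraries (SD, n = 2 each). Nr1d1, Dbp and Nr1d2 followed, with means over the 4 libraries of 66.6, 64.6 and 59.1 TPM. The ranges of these 4 genes overlapped, so their order is not resolved. Cry1 came next with a mean of 36.9 TPM, its lowest library (24.6 TPM) still above the highest of Per2 (21.7 TPM). Its range overlapped those above, and in Robo mutant 2 Cry1 (49.8 TPM) exceeded Nr1d1 (42.5 TPM), Dbp (36.75 TPM) and Nr1d2 (33.1 TPM). Per2, with a mean of 20.3 TPM, lay above Clock in each of the 4 libraries. Clock (12.2 TPM), Arntl (9.53 TPM), Per3 (8.002 TPM) and Per1 (5.13 TPM) formed the low end, with overlapping ranges between neighbours. With the longest annotated transcript as the length, Dbp and Nr1d1 exchanged places, as did Clock and Arntl.

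Between genotypes, none of the 10 clock genes passed the test, and the set was split, with 5 higher and 5 lower in the Robo mutant. The higher ones were Per1, Arntl, Cry1, Per2 and Cry2, and the lower ones Nr1d2, Nr1d1, Per3, Dbp and Clock. Their median log2 change was -0.019, against -0.013 over the 16517 genes tested, of which 48.7% lay above 0. By edgeR's quasi-likelihood test 0 of the 10 had an adjusted p under 0.05, as had 0 of all genes (0%), and 2 of the 10, Per3 and Nr1d2, had an unadjusted p under 0.05, against 6.21% of all genes (1.99% higher and 4.21% lower in the mutant). Without control 1 that count was 0 of the 10, where 1.20% of all genes tested in that fit were under 0.05, and without Robo mutant 1 it was 6 of the 10, where 19.0% were. DESeq2 called 0 of the 10 and 0.914% of all genes. The targeted genes Robo1 and Robo2 each had an adjusted p of 0.680 by edgeR, while DESeq2 called both (adjusted p = 0.00186 and 1.99e-05). The edgeR test thus missed even the targeted genes, so a clock gene that did not pass is not shown to be unchanged. In 5 of the 10 both mutant libraries lay on 1 side of both control libraries, 3 above (Arntl, Per1 and Per2) and 2 below (Per3 and Nr1d2), where 36.6% of all genes did so (16.1% above and 20.4% below). Without Robo mutant 2 the split was 3 higher and 7 lower.

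**Figure D1:**
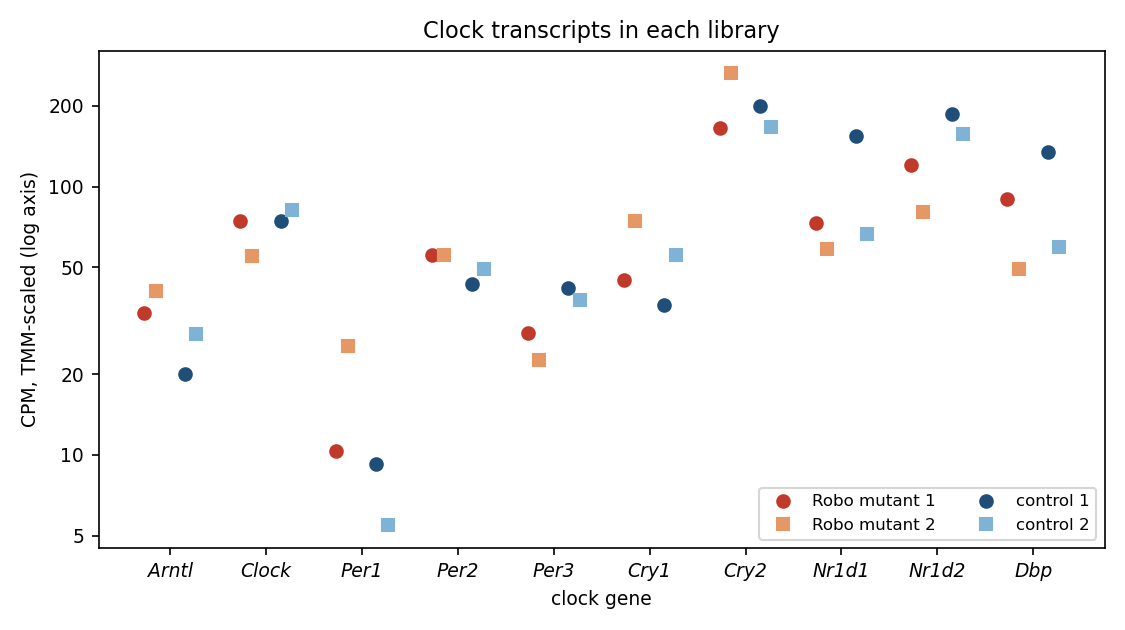
TMM-scaled CPM of each of the 10 clock genes in the 2 Robo mutant libraries (red and orange) and the 2 control libraries (dark and light blue), on a log axis, 1 point per library. Arntl, Per1 and Per2 have both mutant points above both control points, Per3 and Nr1d2 have both below, and the other 5 genes overlap.

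The activator Arntl (ENSMUSG00000055116, chr7:113207465-113314126, plus strand) was higher in both mutant libraries, at 33.9 and 40.95 CPM, against 19.95 and 28.3 CPM in the control libraries (gene positions are those of GENCODE M21 on GRCm38). The genotypes did not overlap, with control 1 the lowest and Robo mutant 2 the highest. Arntl had a log2 change of 0.63 ± 0.25 (SE, n = 2 each), with a 95% interval whose lower end was -0.03, and the adjusted p by edgeR was 0.832. Clock (ENSMUSG00000029238, chr5:76209868-76304792, minus strand), which encodes the partner of BMAL1, was at 74.6 and 55.2 CPM in the mutant libraries, against 74.2 and 81.6 CPM in the control libraries. Robo mutant 1 lay between the controls and Robo mutant 2 below them, with a log2 change of -0.26 and an interval from -0.78 to 0.25 (-0.06 without Robo mutant 2). In bulk samples of this kind, fewer cells of a type and less RNA per cell cannot be told apart.

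The REV-ERB genes were lower in the mutant means, Nr1d2 in both mutant libraries and Nr1d1 mainly against control 1. Nr1d2 (ENSMUSG00000021775, chr14:18204054-18239127, minus strand) was at 120.7 and 80.3 CPM in the mutant libraries, against 186 and 156 CPM in the control libraries, a 1.70-fold lower mean without overlap. Its log2 change was -0.77 ± 0.24 (SE, n = 2 each), with an interval from -1.41 to -0.12 (edgeR, unadjusted p = 0.0289, adjusted p = 0.733). Nr1d1 (ENSMUSG00000020889, chr11:98767932-98775333, minus strand) stood at 73.1 and 58.7 CPM in the mutant libraries, against 154.5 and 66.6 CPM in the control libraries. Control 2 lay between the mutant libraries while control 1 was 2.32-fold above it. The log2 change of Nr1d1 was -0.75 with an interval from -1.89 to 0.40, and without control 1 it was -0.01. Nr1d1 shares 263 bases, 8.55% of its exons, with the opposite-strand gene Thra, and the library chemistry does not mark the strand, so reads there cannot be told apart. Thra itself was at 32.4 and 43.8 CPM in the mutant libraries, against 30.8 and 23.7 CPM in the control libraries, in another order of libraries.

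The 3 Period genes, which encode the PER repressors, differed from each other. Per1 (ENSMUSG00000020893, chr11:69095217-69109960, plus strand) was at 10.3 and 25.5 CPM in the mutant libraries, against 9.28 and 5.47 CPM in the control libraries. Robo mutant 2 lay far above the rest, while Robo mutant 1 exceeded control 1 by little. The log2 change of Per1 was 1.28 with an interval from -0.23 to 2.78 (edgeR, adjusted p = 0.877), and without Robo mutant 2 it was 0.49. Per2 (ENSMUSG00000055866, chr1:91415982-91459324, minus strand) was nearly level between the mutant libraries, at 55.5 and 55.4 CPM, against 43.2 and 49.4 CPM in the control libraries. The genotypes of Per2 did not overlap, but the difference was small, with a log2 change of 0.26 and an interval from -0.13 to 0.65. Per3 (ENSMUSG00000028957, chr4:151003652-151044665, minus strand) was lower instead, at 28.35 and 22.5 CPM in the mutant libraries, against 41.99 and 37.8 CPM in the control libraries. Both mutant libraries were below both controls, with a 1.57-fold lower mean. The log2 change of Per3 was -0.65 ± 0.20 (SE, n = 2 each), with an interval from -1.18 to -0.12 (edgeR, unadjusted p = 0.0257, the smallest of the 10, and adjusted p = 0.695). Leaving out single libraries moved it between -0.82 and -0.49.

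Per1 is also an immediate early gene, switched on within minutes by cyclic AMP signalling, and by glucocorticoids. All 13 members of a list of immediate early and CREB target genes were higher in both mutant libraries than in both controls (16.1% of all genes), with a median log2 change of 0.99, while 0 of them passed in edgeR and 1, Atf3, in DESeq2. The smallest p in this list belonged to Atf3, a stress factor (log2 change 1.48), followed by Nr4a1 (1.95), Nr4a2 (1.28) and Crem (0.84), which encodes a cyclic AMP response factor. Fos, the best known of these genes, was at 4886 and 5184 CPM in the mutant libraries, against 3965 and 1829 CPM in the control libraries. Summed, the list was at 13792 and 16645 CPM in the mutant libraries, against 10898 and 4779 CPM in the control libraries. Of the 13 genes, 9 had the order of libraries that Per1 had (Robo mutant 2, Robo mutant 1, control 1, control 2). So did 4.41% of the 9019 genes with a mean of at least 10 CPM. Most orders were excluded beforehand, because Per1 and all 13 were higher in both mutant libraries than in both controls. The other orders open to them were held by 3.38%, 4.25% and 4.87% of the 9019 genes, so the shared order is weaker than 4.41% alone makes it look. Per2 and Per3 did not have the order of Per1. The list's part in the values of Per1 was not tested. Of the 5 tested glucocorticoid receptor targets 3 were higher and 2 lower, with a median of 0.34 and 0 calls. In 2 of them, Errfi1 (log2 change 0.93) and Klf9 (0.43), the genotypes did not overlap, against 36.6% of all genes. Tsc22d3 (-0.24) and Sgk1 (0.34) overlapped.

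**Figure D2:**
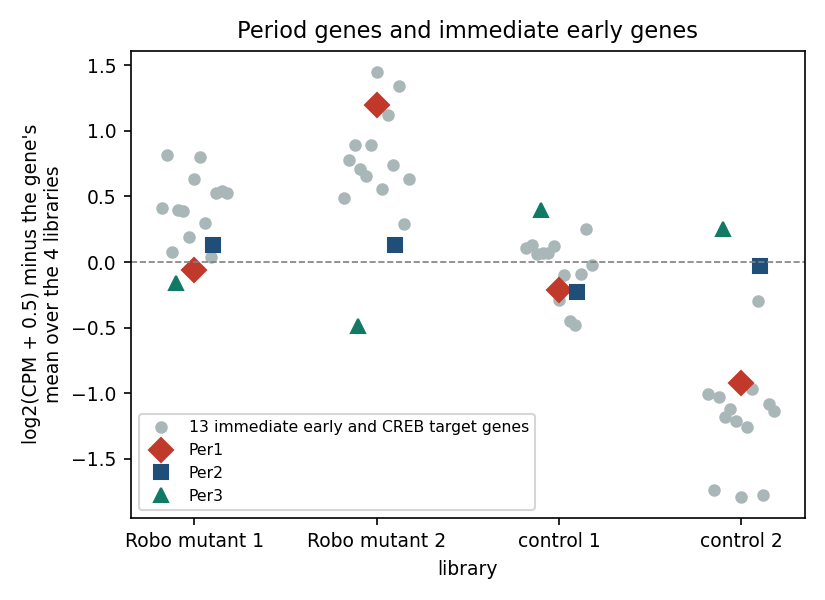
For each library, log2(CPM + 0.5) minus the gene's own mean over the 4 libraries, for Per1 (red), Per2 (blue), Per3 (green) and 13 immediate early and CREB target genes (grey). The highest value of Per1 is 1.20 in Robo mutant 2 and its lowest is -0.92 in control 2, where the grey genes also lie lowest except Crem, which is lowest in control 1, while Per3 runs the other way between genotypes.

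The Cryptochrome genes, whose products are the strongest repressors of the loop, overlapped between genotypes. Cry1 (ENSMUSG00000020038, chr10:85131700-85185064, minus strand) was at 44.9 and 74.6 CPM in the mutant libraries, against 36.1 and 55.6 CPM in the control libraries, so that control 2 exceeded Robo mutant 1. Its log2 change was 0.38 with an interval reaching down to -0.53, and it was -0.03 without Robo mutant 2. Cry2 (ENSMUSG00000068742, chr2:92403646-92434043, minus strand) was at 164.9 and 264 CPM in the mutant libraries, against 200.3 and 166.5 CPM in the control libraries. Robo mutant 2 was the highest library and Robo mutant 1 the lowest, and the log2 change of 0.23 became -0.15 without Robo mutant 2.

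Dbp (ENSMUSG00000059824, chr7:45705088-45710203, plus strand), the output factor that acts at D-boxes, varied more within a genotype than between genotypes. It was at 89.5 and 49.35 CPM in the mutant libraries, against 134.7 and 59.65 CPM in the control libraries. The first library of each genotype was the higher one, by 1.81-fold in the mutant and 2.26-fold in the control, whereas the genotype means differed 1.40-fold. The log2 change of Dbp was -0.49 with an interval from -1.80 to 0.83, and 0.22 without control 1. Its exons share 539 bases, 18%, with the opposite-strand gene Sphk2, which was at 33.45 and 55.1 CPM in the mutant libraries and 26.1 and 42.2 CPM in the control libraries, opposite to Dbp within each genotype. The related factor genes Tef and Hlf had the same order of libraries as Dbp and Nr1d1. Tef was at 117.1 and 90.2 CPM in the mutant libraries, against 166.3 and 106 CPM in the control libraries. Hlf was at 6.64 and 3.915 CPM in the mutant libraries, against 12.1 and 5.497 CPM in the control libraries.

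**Figure D3:**
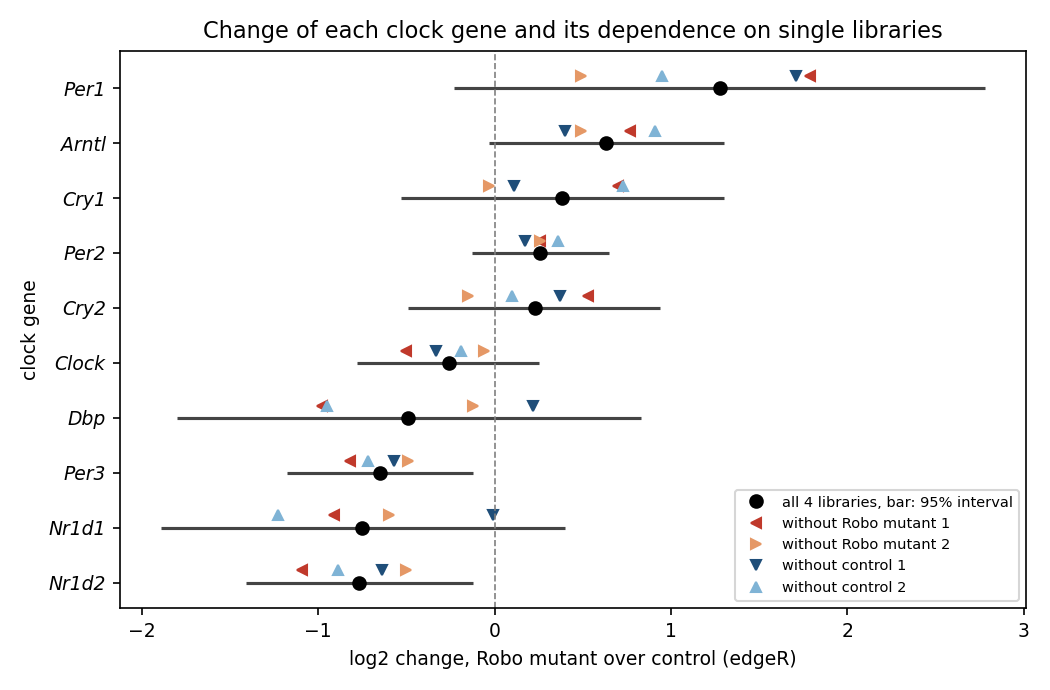
Log2 change of each clock gene, Robo mutant over control, from the fit with all 4 libraries (black, bar for the 95% interval) and with each library left out (coloured triangles). The intervals of Per3 and Nr1d2 lie below 0, that of Arntl ends at -0.03, and Cry1, Cry2 and Dbp change sign when 1 library is left out.

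Across the 4 libraries some of the clock genes showed opposed profiles, picked and described here after their values were seen and without a test. Nr1d1, Dbp, Tef and Hlf were highest in control 1, then in Robo mutant 1, control 2 and Robo mutant 2. This order was shown by 4.30% of genes with a mean of at least 10 CPM. It was that of 2 of the 10 clock genes and 2 of 12 other clock components described below. All 5 stromal markers had this order too (sums of 812 and 9.41 CPM in the mutant libraries and 1796 and 538 CPM in the control libraries), as did 1 of 9 β-cell markers, 1 of 10 acinar markers and 1 of 2 PP-cell markers. Their part in these clock transcripts was not tested. Arntl had its lowest level in control 1 and its highest in Robo mutant 2. Nfil3, the repressor gene whose window shares the RORE core printed above, had the same order as Arntl (4.87% of genes). No other gene of the 10 or of the 12 had this order. Nfil3 was at 42.05 and 82.95 CPM in the mutant libraries, against 22.75 and 35.4 CPM in the control libraries, with a log2 change of 1.11 ± 0.41 (SE, n = 2 each; edgeR, unadjusted p = 0.0497, adjusted p = 0.804). Cry1 also had its lowest level in control 1 and its highest in Robo mutant 2, with control 2 above Robo mutant 1 (4.21% of genes). Clock, Per1, Per2 and Cry2, and among the other components Ciart and Bhlhe41, had none of these orders. The ratio of Nr1d1 to Arntl, in CPM without length correction, was 2.16 and 1.43 in the mutant libraries, against 7.75 and 2.35 in the control libraries. That of Dbp to Arntl was 2.64 and 1.205, against 6.75 and 2.11 in the control libraries. In both ratios control 1 stood far above the rest, and control 2 lay between or close to the mutant libraries. For Per3 to Arntl the genotypes did not overlap, at 0.84 and 0.55 in the mutant libraries, against 2.105 and 1.34 in the control libraries. That was fixed beforehand, because Per3 was lower and Arntl higher in both mutant libraries than in both controls.

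**Figure D4:**
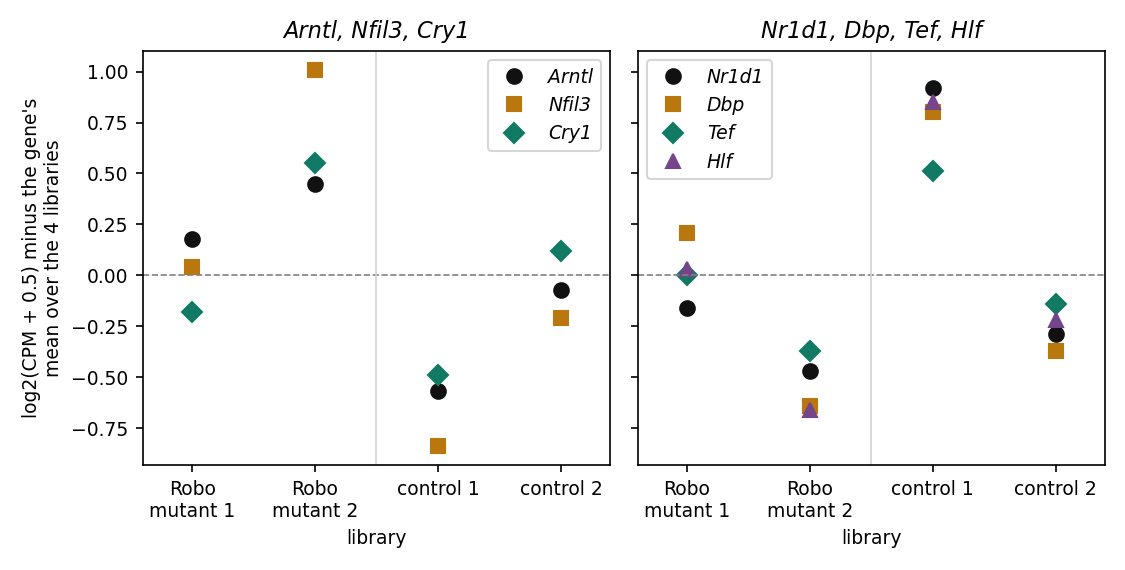
For each library, log2(CPM + 0.5) minus the gene's own mean over the 4 libraries, for Arntl, Nfil3 and Cry1 (left) and Nr1d1, Dbp, Tef and Hlf (right). The genes on the left are lowest in control 1 and highest in Robo mutant 2, and those on the right are highest in control 1 and lowest in Robo mutant 2.

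Measured by the Euclidean distance between these centred profiles over the 4 libraries, the closest pair among the 10 was Per3 and Nr1d2 (0.244), and the most distant pair was Per1 and Nr1d2 (2.35). Nr1d1 and Dbp were each other's nearest (0.430), as were Arntl and Cry1 (0.430). Outside the clock, the genes nearest to Per3 among 8259 candidates at or above the median level were Nln (distance 0.068), Sh2b3 (0.073) and Bdh1 (0.086). A summary of the whole set, the mean log2 level of the 8 repressor and output genes minus that of Arntl and Clock, was 0.16 and 0.31 in the mutant libraries, against 0.82 and 0.14 in the control libraries. The genotype means differed by -0.25, less than the control SD of 0.48, and by 0.09 without control 1.

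Several clock genes differed between libraries of the same genotype more than most genes did. Between the control libraries, Nr1d1 and Dbp differed by 1.21 and 1.17 on the log2 scale, where the median of the 9019 genes with at least 10 CPM was 0.17. A difference as large was found in 1.73% of these genes for Nr1d1 and in 1.90% for Dbp, and for Per1 (0.71) and Cry1 (0.61) in 4.61% and 6.34%. Clock, Per3 and Per2 differed little between the controls, by 0.14, 0.15 and 0.19. Between the mutant libraries, whose median difference was 0.30, Per1 differed most of the 10 (1.26, reached by 4.29% of genes), followed by Dbp (0.85, 10.8%), while Per2 was level to within 0.00.

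**Figure D5:**
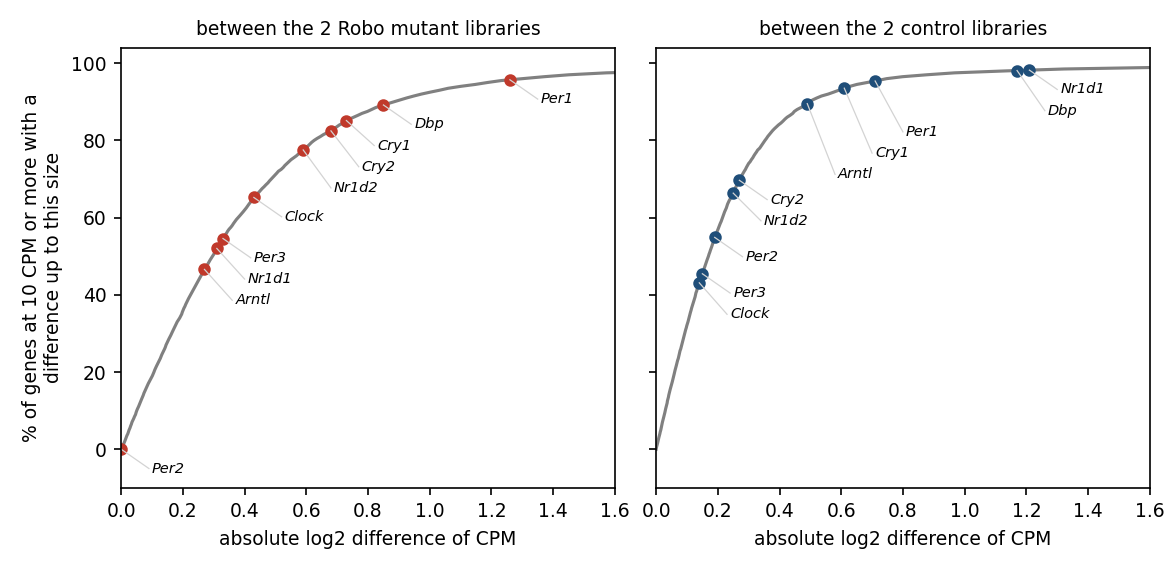
Absolute log2 difference between the 2 Robo mutant libraries (left) and between the 2 control libraries (right) for each clock gene (points), on the cumulative curve of all genes with a mean of at least 10 CPM (grey). Nr1d1 and Dbp lie at the upper end between the controls, and Per1 between the mutant libraries.

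The other components of the clock were split as well. Of 12 genes 5 were higher and 7 lower, with a median log2 change of -0.025. The genotypes did not overlap in 4 of the 12, against 36.6% of all genes. By edgeR 4 had an unadjusted p under 0.05, against 6.21% of all genes, and 0 passed. Rora, which encodes the ROR receptor that activates at ROREs, was at 108.9 and 105.9 CPM in the mutant libraries, against 77.0 and 75.2 CPM in the control libraries. This was 1.41-fold higher with little spread, a log2 change of 0.50 ± 0.12 (SE, n = 2 each; edgeR, unadjusted p = 0.0103, adjusted p = 0.680, and DESeq2, adjusted p = 0.0695). Rorb, a relative of Rora, had 126 and 46 counts in the mutant libraries and 0 in both control libraries, at least 25.9-fold higher against a floor of 3 counts per library, and DESeq2 called it (adjusted p = 0.0184). Npas2, which encodes a stand-in for CLOCK, had 0 counts in both mutant libraries and 15 and 51 in the control libraries, at least 12.4-fold lower on the same floor. Both genes were scarce and passed the filter on low counts only through the genotype in which they had counts. Their fold, p-values and lack of overlap are therefore not support for a difference. Both are among the 4 genes without overlap and the 4 with an unadjusted p under 0.05 by edgeR. The repressor genes Bhlhe40 (log2 change -0.02), Bhlhe41 (-0.47) and Ciart (-0.03) overlapped between genotypes. Ciart was the higher in the first library of each genotype, at 11.6 and 5.56 CPM in the mutant libraries, against 11.2 and 6.355 CPM in the control libraries.

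Genes that control the clock proteins after translation differed little as a group. Of 11 kinase and protein turnover genes 5 were higher and 6 lower, with a median of -0.021 and 0 passing in edgeR or DESeq2. The genotypes did not overlap in 4 of the 11, against 36.6% of all genes. The kinase genes Csnk1d and Csnk1e, whose products phosphorylate PER, had log2 changes of -0.14 and 0.19. Usp2, the gene of a deubiquitinase, was at 10.0 and 13.1 CPM in the mutant libraries, against 5.81 and 3.88 CPM in the control libraries. Both mutant libraries were above both controls, with a log2 change of 1.26 ± 0.40 (SE, n = 2 each; edgeR, unadjusted p = 0.0301, adjusted p = 0.7345). Fbxw11, a ligase gene acting on PER, was lower in both mutant libraries (log2 change -0.43), and Fbxl21 had a log2 change of 0.57.

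Among 11 clock-controlled genes of many tissues 5 were higher and 6 lower, with a median of -0.19 and 0 passing in edgeR. The genotypes did not overlap in 5 of the 11, against 36.6% of all genes. Cdkn1a, the gene of a cell cycle inhibitor, was at 38.9 and 64.5 CPM in the mutant libraries, against 20.75 and 18.4 CPM in the control libraries. DESeq2 called it (adjusted p = 0.00893), while edgeR gave a log2 change of 1.40 and an adjusted p of 0.680. Klf10 (log2 change 1.04) and Klf9 (0.43), genes of zinc finger factors, were also higher in both mutant libraries, and Por, the gene of the electron donor of cytochrome P450 enzymes, was lower in both (-0.20).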

How the data were processed

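Per the labels' protocols, mCherry-positive cells were sorted from dissociated islets, cDNA was made with the SMART-Seq v4 kit and libraries with Nextera XT. These kits leave strand unmarked. Per the submitters' processing notes, the tools were RSEM 1.3.0, STAR 2.5.3a, edgeR 3.16.5 and bcl2fastq 2.20.0.422, with no role or order given, and the build was GRCm38. The annotation release is not given in the sources used here, nor is the counting option for strand. The authors' deposited values are RSEM expected counts per gene in whole numbers. The table's name calls them normalized, but totals differ between libraries and the low values show no gaps, so they were treated as counts. The values do not tell whether an earlier step had rescaled them, and if one had, totals are not depth. Columns of no sample numbered 0.

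Genes reaching 10 counts in 2 or more libraries (16517) were scaled by TMM and tested two-sided with glmQLFit and glmQLFTest of edgeR 4.0.16 in R 4.3.3, Benjamini-Hochberg adjusted over all of them with a threshold of 0.05. Standard errors came from the F statistic, and 95% intervals from these with the fit's degrees of freedom. DESeq2 1.42.0 and limma 3.58.1 were alternatives, and the scripts were tested on simulated data. Per-library profiles used a pseudocount of 0.5 CPM. Lengths and positions came from GENCODE M21 on the same build (51633 of 51912 identifiers matched). Replicate numbers follow accession order. Named besides the 10 genes were up to 4 members of smallest p per list and a fixed set of clock components, and Fos, Thra and Sphk2 were chosen after their values were seen. Some genes of the lists are counted but not reported here by name. The members, lists and tests were chosen with earlier results of these data known.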

Additional observations from a re-analysis of the deposited data

How the results depend on the processing

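The count of clock genes past the threshold was 0 under each alternative fit (RLE factors, total counts, no filter, at least 50 counts, DESeq2, limma with trend and each library left out). The median log2 change of the clock genes was -0.019, ranged from -0.118 to 0.137 with a library left out, and was -0.26 without Per1, an alternative chosen after the data were seen. The number of all genes past the threshold was 0 in edgeR and 151 in DESeq2, and ranged from 0 to 1 with a library left out. The number of clock genes above 0 ranged from 3 to 6 with a library left out, the lowest without Robo mutant 2, and the number without overlap from 6 to 10, against 5 with all libraries. A single library has no range, so fewer genes can overlap, and the share of all genes without overlap was 57.6% to 78.9% in these fits, against 36.6% with all libraries. In these fits the genotype with 1 library is assumed to vary like the other. The log2 change of Cry1 ranged from -0.03 to 0.73 and that of Cry2 from -0.15 to 0.53, both lowest without Robo mutant 2, and that of Dbp from -0.98 to 0.22, highest without control 1. The cause was not tested. The difference in the log2 ratio of repressor and output genes to activators was -0.25, ranged from -0.59 to 0.09 with a library left out, and was -1.13 with Dbp, Nr1d1, Nr1d2 and Per3 against Arntl and Cry1, members chosen after their values were seen. With the longest transcript as length 6 of the 10 genes kept their rank. No paired analysis was possible because the labels give no replicate numbers. Per1, with 223 counts in control 2, is the member for which depth limits precision most.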

Other observations

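Of the 9 β-cell markers only the insulin gene Ins2 had the order of libraries that Nr1d1, Dbp, Tef and Hlf had, at 149728 and 99747 CPM in the mutant libraries, against 153155 and 125763 CPM in the control libraries. The order was looked up after the values were seen, all 5 stromal markers also had it, and so did 4.30% of genes with a mean of at least 10 CPM.

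Of the 9019 such genes, 31.4% were lowest in Robo mutant 2 and 29.7% were highest there, against 5 and 4 of the 10 clock genes. Control 1 was the highest library for 19.8% of these genes and for 4 of the 10 clock genes (Per3, Nr1d1, Nr1d2 and Dbp).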
